A study of Mus musculus with 4 samples.

Results

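Glucocorticoid target genes and metallothioneins were examined in 4 clonal mouse mammary tumor cell lines. Only the mesenchymal-like lines were grown in medium with added hydrocortisone. The 10 genes described are the metallothioneins Mt1 and Mt2, the glucocorticoid receptor gene Nr3c1 and the glucocorticoid target genes Zbtb16, Fkbp5, Tsc22d3, Per1, Sgk1, Dusp1 and Klf9. They were taken as a named list, out of 21335 gene symbols on the array, and each had 1 probe set. The lines came from 1 spontaneous tumor of a female FVB Tg MMTV/neu mouse, which carries rat neu under the mammary MMTV promoter. Cells high in CD24 and neu gave the epithelial clones E1 and E2, cultured in RPMI with 20% serum, and cells low in both gave the mesenchymal-like clones M1 and M2, cultured in MEGM with 2% serum and added hydrocortisone, pituitary extract, insulin and epidermal growth factor. Cell type, hydrocortisone, serum and the other supplements therefore cannot be told apart on these arrays. RNA of each line was measured on 1 Affymetrix mouse gene array. The values are the log2 expression levels that the authors normalized, and array medians lay between 6.75 and 6.85. No line had a repeat array, so that the spread within a type is the difference between its 2 clones.

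Glucocorticoids such as hydrocortisone enter the cell and bind the glucocorticoid receptor, which is held in the cytoplasm by chaperones until then. The bound receptor moves to the nucleus and activates genes through glucocorticoid response elements, and it represses many inflammatory genes. Metallothioneins are small cysteine-rich proteins that bind zinc and copper, and their genes respond to metals through metal response elements and the factor Mtf1 as well as to glucocorticoids.

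Sequence near the start of both metallothionein genes is shown because these genes had the 2 largest differences among the 10, and they lie next to each other with 0 other genes listed between them. From the RefSeq promoter sequences of GRCm38.p6, the 250 bases before the listed start of Mt2 and 30 bases around the core that lies before the listed start of Mt1 are given 5′ to 3′ on the plus strand. The core of the metal response element, TGCACNC or TGCGCNC on either strand, is in capitals.
Mt2, chr8:94172368-94172617: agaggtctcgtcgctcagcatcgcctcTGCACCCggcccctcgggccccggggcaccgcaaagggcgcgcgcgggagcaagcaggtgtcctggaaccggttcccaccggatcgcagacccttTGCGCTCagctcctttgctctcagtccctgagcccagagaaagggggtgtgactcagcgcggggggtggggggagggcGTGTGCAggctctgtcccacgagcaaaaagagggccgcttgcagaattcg
Mt1, chr8:94179055-94179084: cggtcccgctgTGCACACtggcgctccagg
With the 250 bases before and the 50 bases after the listed start, the window of 300 bases held 4 cores at Mt2 and 3 at Mt1. The listed start is that of the promoter sequences. For Mt1 the listing of genes gives an earlier start, 94178883, and by that start the core shown lies inside the gene. Of all 32851 such windows, 25.7% held at least 1 core, 1.97% at least 3 and 0.517% at least 4. The palindromic glucocorticoid response element, read as AGAACA, 3 bases of any kind and TGTTCT with up to 2 of the 12 fixed letters changed, was searched in the same windows, of which 1.84% held it. It was present in neither metallothionein window, which says only that these letters are not in this stretch. Windows were listed for 8 of the 10 genes, and Zbtb16 and Nr3c1 were not matched. Among the 16 windows of the 8 genes, the element was found in 2 of the 6 windows of Sgk1. One of these matches was exact, as in 3 windows of the whole table, and it began at position -189 from a start site. The element is in capitals.
Sgk1, chr10:21993694-21993723, plus strand, GRCm38.p6: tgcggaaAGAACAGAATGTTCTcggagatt

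Mt2 and 3 glucocorticoid target genes were higher in the mesenchymal-like lines than in the epithelial lines. By limma, 4 of the 10 genes were higher at an adjusted p under 0.05 and 0 were lower, while 1.72% of all 23410 probe sets with a gene symbol were higher and 3.73% were called in either direction. Both mesenchymal-like lines lay above both epithelial lines in 8 of the 10, against 24.2% of all probe sets, and in the same 8 the mean was at least 2-fold higher, against 5.25%. The median log2 difference of the 10 genes, mesenchymal-like minus epithelial, was 1.87, and that of all probe sets was 0.00. Sgk1 and Nr3c1 were the genes in which the types overlapped. Without E1 and without E2, limma called 0 of the 10 genes and 0 of all probe sets (8 and 6 of the 10 had an unadjusted p under 0.05). Without M1 it called 5 of the 10 and 1761 of all, and without M2 4 and 1879. An exact permutation test of 2 lines against 2 cannot give a two-sided p below 0.333.

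**Figure D1:**
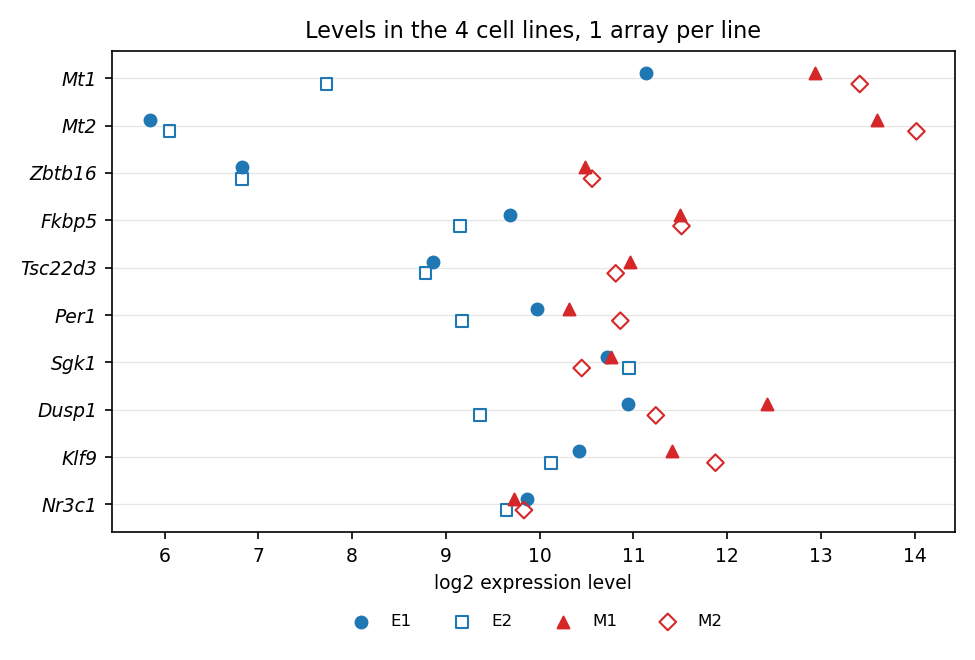
Log2 expression level (horizontal axis) of the 10 genes in E1, E2, M1 and M2, 1 array per line, with epithelial lines in blue and mesenchymal-like lines in red. M1 and M2 lie to the right of E1 and E2 for 8 genes and overlap with them for Sgk1 and Nr3c1.

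Among the metallothioneins, Mt2 was at 5.85 (E1), 6.05 (E2), 13.59 (M1) and 14.02 (M2). Both epithelial lines were below the median of all values, 6.78, and both mesenchymal-like lines were far above them. The log2 difference was 7.86 (95% interval 7.31 to 8.40, limma adjusted p = 0.00252), a 232-fold ratio of the listed values. This was the largest difference in this direction of the 23410 probe sets tested. Rank 1 was kept under quantile normalization, median centring, a floor at the median, testing of all probe sets and leaving out each line. Folds ranged from 131 to 268. The other alternative settings could not have lowered this rank. As the arrays' background could not be read from the values, the ratio of transcripts may differ from this fold.

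Mt1 behaved differently in one epithelial line. Its level was 11.13 (E1), 7.73 (E2), 12.93 (M1) and 13.41 (M2). E2 was low and E1 lay nearer to the mesenchymal-like lines than to E2. The log2 difference between the types was 3.74 (95% interval 0.32 to 7.17), and it did not pass over all genes (limma adjusted p = 0.242). Against E1 alone the mesenchymal-like mean was higher by 2.04, and against E2 alone by 5.45. E1 and E2 were 10.6-fold apart in Mt1 and 1.15-fold apart, in the other direction, in Mt2. Only 38 probe sets, Mt1 included, had a difference between E1 and E2 at least as large. Mt1 and Mt2 are similar in sequence, and whether their probes cross-hybridize was not tested.

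The glucocorticoid target Zbtb16, which encodes the transcriptional repressor Plzf, had close levels within each type. Its level was 6.83 (E1), 6.83 (E2), 10.48 (M1) and 10.56 (M2). The epithelial lines were close to the median of all values, and the mesenchymal-like lines were higher by 3.69 on the log2 scale (95% interval 3.40 to 3.99, limma adjusted p = 0.00272). This corresponds to a 12.9-fold ratio.

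Fkbp5 encodes a cochaperone that lowers the hormone affinity of the receptor and so acts in negative feedback. It was at 9.69 (E1), 9.15 (E2), 11.50 (M1) and 11.51 (M2). The epithelial lines already had a level well above the array median, and the mesenchymal-like lines were 4.24-fold higher, with a log2 difference of 2.09 (95% interval 1.49 to 2.69, limma adjusted p = 0.0275). Tsc22d3 encodes Gilz, a leucine zipper protein that carries part of the anti-inflammatory action of glucocorticoids. It was at 8.86 (E1), 8.78 (E2), 10.96 (M1) and 10.81 (M2). Its log2 difference was 2.06 (95% interval 1.74 to 2.39, limma adjusted p = 0.00709), or 4.18-fold, close to that of Fkbp5. With values under the file median raised to that median, the calls of Fkbp5 (adjusted p = 0.190) and Tsc22d3 (0.0561) were lost in limma although their own values did not change, and those of Mt2 and Zbtb16 were kept.

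Klf9, Per1 and Dusp1 had higher means in the mesenchymal-like lines and did not pass. Klf9, a Krüppel-like transcription factor, was at 10.42 (E1), 10.12 (E2), 11.41 (M1) and 11.87 (M2), with a log2 difference of 1.37 (95% interval 0.75 to 1.99, limma adjusted p = 0.0700). It passed without M1 (limma adjusted p = 0.0300). Per1, a repressor of the circadian clock, was at 9.97 (E1), 9.17 (E2), 10.31 (M1) and 10.86 (M2). Its lines did not overlap between the types, but E1 and M1 were close, and its log2 difference was 1.02 (95% interval 0.01 to 2.02, limma adjusted p = 0.275). Dusp1, a phosphatase that inactivates MAP kinases, was at 10.94 (E1), 9.37 (E2), 12.43 (M1) and 11.24 (M2). E1 and M2 were within 0.29 of each other, and the log2 difference between the types was 1.68 (95% interval -0.30 to 3.66, limma adjusted p = 0.352).

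Sgk1, a kinase that regulates ion transport, had no consistent order of types. It was at 10.72 (E1), 10.95 (E2), 10.76 (M1) and 10.45 (M2), a log2 difference of -0.23 (95% interval -0.71 to 0.24, limma adjusted p = 0.603). The exact response element printed above lies in 1 of the 6 windows listed for this gene. Use of that start site in these lines was not tested. The receptor gene Nr3c1 was at 9.86 (E1), 9.65 (E2), 9.72 (M1) and 9.83 (M2). Its log2 difference was 0.02 (95% interval -0.35 to 0.39, limma adjusted p = 0.969), with a sign that turned when arrays were centred on their medians (-0.02).

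**Figure D2:**
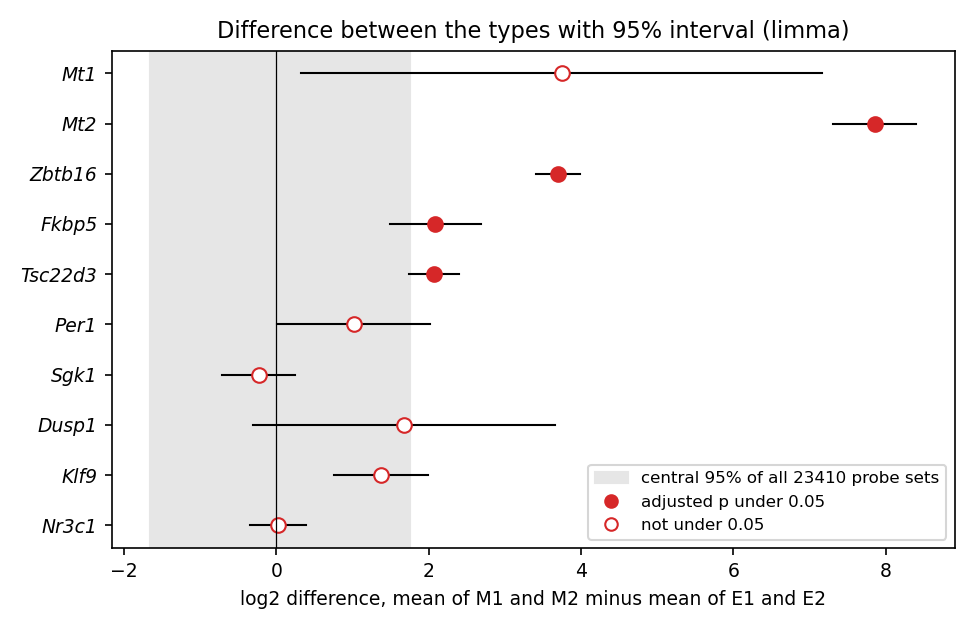
Log2 difference between the types for the 10 genes (points) with 95% intervals from limma (lines); filled points passed at an adjusted p under 0.05, and the gray band holds the central 95% of all probe sets, from -1.66 to 1.75. Mt2, at 7.86, and Zbtb16, at 3.69, lie far outside the band, and the interval of Mt1 is the widest.

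The difference between clones of the same type was largest, among the 10 genes, in Mt1 and Dusp1. At least a 2-fold difference between E1 and E2 was found for these 2 genes of the 10, against 2.24% of all probe sets, and E1 was the higher line in both. Between M1 and M2, Dusp1 alone was at least 2-fold apart, at 2.28-fold higher in M1, against 5.86% of all probe sets. Zbtb16 was 1.05-fold apart between M1 and M2 and Fkbp5 1.01-fold. E1 was above E2 in 8 of the 10 genes, with Mt2 and Sgk1 as the exceptions, against 47.1% of all probe sets. The list of further glucocorticoid-induced genes described below went the other way, with E1 above E2 in 9 of 29 probe sets. Each of these values compares a single array with another and carries no test.

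Immediate early genes, which respond within minutes to serum and growth factors and include Dusp1 by the same property, were mostly higher in E1. Of 21 such genes other than Dusp1, 15 were higher in E1 than in E2, or 71.4% against 47.1% of all probe sets. At least a 2-fold higher level in E1 was found for 4 and in E2 for 1, or 19% and 4.76% against 0.987% and 1.25% of all. The median log2 difference of E1 from E2 was 0.42, against -0.02 over all probe sets. The AP-1 subunits Fos and Fosb, named after their values were seen, were at 11.70 and 11.65 in E1 and at 9.77 and 8.36 in E2. The part of such a response in the levels of Mt1, Dusp1 and Per1 in E1 was not tested.

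**Figure D3:**
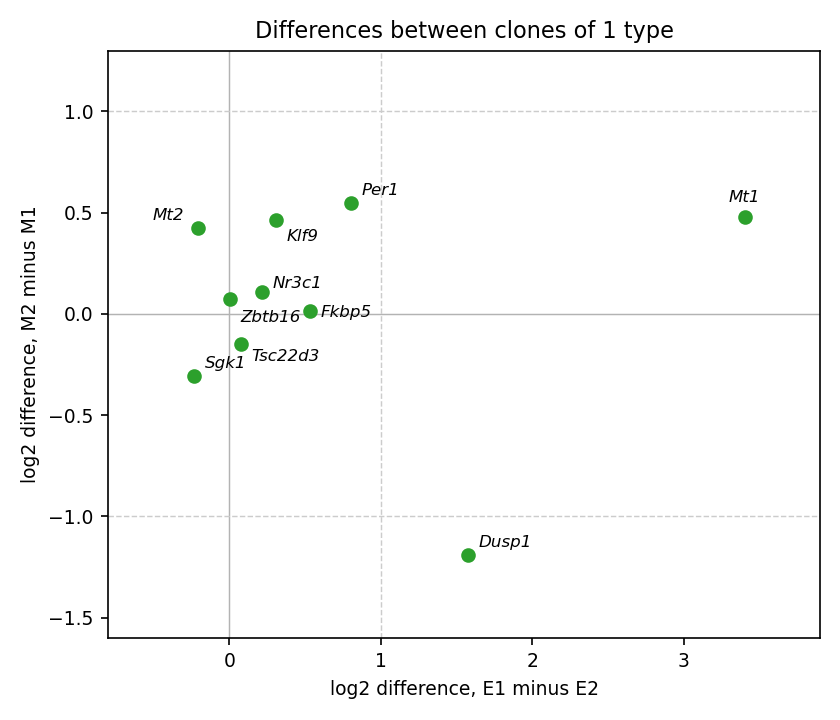
Log2 difference of E1 from E2 (horizontal axis) against that of M2 from M1 (vertical axis) for the 10 genes, 1 array per line, with dashed lines at 2-fold. Mt1 stands at 3.41 on the horizontal axis, Dusp1 at 1.58 and -1.19, and the other 8 genes lie within 2-fold on both axes.

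Among further genes that glucocorticoids induce, Glul and Bcl6 were higher in the mesenchymal-like lines. In a list of 29 further glucocorticoid-induced genes, 28 were measured by 29 probe sets, of which limma called 3 higher in the mesenchymal-like lines, or 10.3% against 1.72% of all probe sets, and 0 lower. With the floor at the file median it called 0 of them. The list's median log2 difference was 0.01. The 3 calls are of 2 genes, since Glul is counted with 2 probe sets. Before adjustment, 20.7% of the list's probe sets had a limma p under 0.05, against 18% over all probe sets. Both mesenchymal-like lines lay above both epithelial lines in 8 of the 29 and below them in 4, against 24.2% and 23.8% of all. Glul, which makes glutamine from glutamate and ammonia, had 2 probe sets, both called: the brighter was at 6.04 (E1), 5.83 (E2), 9.15 (M1) and 8.96 (M2) (limma adjusted p = 0.00437). The repressor Bcl6 was at 7.96 (E1), 8.27 (E2), 11.14 (M1) and 10.58 (M2), 6.68-fold higher (limma adjusted p = 0.0203). Fam107a, named after its values were seen, had a high level only in M1 among the 4 lines, at 11.16, with 7.89, 7.80 and 7.82 in E1, E2 and M2. Angptl4 and Pdk4, also named after their values were seen, had log2 differences of 0.52 and -0.07 and did not pass (limma adjusted p = 0.413 and 0.850). In 7 of the 29 probe sets all 4 lines were below the file median.

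Of the genes that fold the receptor, act as its coregulators or convert its ligand, 17 of 20 were measured, by 23 probe sets, and limma called 0, against 3.73% of all probe sets. Before adjustment, 6 had a p under 0.05, which is 26.1% of the list, against 18% over all probe sets. Some genes had several probe sets, so that this count includes a gene more than once. The median log2 difference was -0.01. The coactivator Ncoa1 was at 11.14 (E1), 11.00 (E2), 9.79 (M1) and 10.56 (M2) (limma adjusted p = 0.246). The mineralocorticoid receptor Nr3c2, which also binds glucocorticoids, was at 5.55, 5.64, 6.78 and 5.97 in the same order (limma adjusted p = 0.322).

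Of 20 probe sets for 19 zinc and copper handling genes, limma called 1 higher in the mesenchymal-like lines and 0 lower, or 5% against 3.73% of all probe sets in either direction, and the median log2 difference was 0.12. The called gene was Slc39a8, which imports zinc and other divalent metals, at 6.30 (E1), 6.21 (E2), 8.37 (M1) and 8.10 (M2) (limma adjusted p = 0.0126). Its call was lost with the floor and with the replicate block. Slc30a4, a zinc transporter of vesicles, was at 11.40, 11.05, 11.83 and 12.55 in the same order and did not pass (limma adjusted p = 0.225). The metal sensor Mtf1 and the zinc exporter Slc30a1, a known target of it, were named after their values were seen. Their log2 differences were 0.47 and 0.28 (limma adjusted p = 0.287 and 0.293). The other metallothioneins Mt3 and Mt4, named likewise, had differences of 0.18 and -0.07 and did not pass (limma adjusted p = 0.523 and 0.845).

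Inflammatory genes that glucocorticoids are known to repress were not mostly lower in the mesenchymal-like lines. The part of hydrocortisone in their levels was not tested, as cell type and the rest of the medium differ with it. Of 23 such genes, limma called 1 higher and 1 lower, or 4.35% in each direction against 1.72% and 2.02% of all probe sets. Both mesenchymal-like lines lay above both epithelial lines in 12 and below them in 5, against 24.2% and 23.8% of all probe sets. In 8 of the 23 probe sets all 4 lines were below the file median, including some of the 12 and some of the 5. Such levels leave little room to see repression. The colony-stimulating factor gene Csf3 was at 8.96 (E1), 8.73 (E2), 7.04 (M1) and 7.15 (M2) (limma adjusted p = 0.0143). Vcam1, an adhesion molecule for leukocytes, went the other way, at 5.66, 5.75, 7.69 and 8.32 (limma adjusted p = 0.0299). Ptgs2, the inducible cyclooxygenase, named after its values were seen, was at 5.77, 5.80, 10.76 and 9.18 in the same order and just missed the threshold (limma adjusted p = 0.0505).

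Immediate early and circadian clock genes were included because Per1, Dusp1, Sgk1 and Klf9 are also controlled by serum or by the clock. In the immediate early list, 1 of 21 probe sets was called higher in the mesenchymal-like lines and 3 lower, or 4.76% and 14.3% against 1.72% and 2.02% of all probe sets, with a median log2 difference of -0.41. The orphan nuclear receptor Nr4a1 was at 12.62 (E1), 11.70 (E2), 8.06 (M1) and 7.10 (M2), 24.0-fold lower (limma adjusted p = 0.0281). The Krüppel-like factor Klf4 was at 6.74, 6.53, 10.13 and 10.05 in the same order, 11.0-fold higher (limma adjusted p = 0.00313). Dusp6, an ERK phosphatase of the same family as Dusp1, was 3.03-fold lower, and Ier3 4.13-fold lower (limma adjusted p = 0.0143 and 0.0189).

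Of the clock list, 1 of 17 probe sets was called, or 5.88% against 3.73% of all probe sets. It measures the clock output factor Hlf, at 10.14 (E1), 10.57 (E2), 6.07 (M1) and 6.22 (M2) (limma adjusted p = 0.00437). Dbp, a factor of the same bZIP family, had the opposite sign, at 9.26, 9.29, 10.14 and 10.89, and did not pass (limma adjusted p = 0.136). Per2, named after its values were seen, was at 8.52, 8.07, 9.20 and 9.53 and did not pass (limma adjusted p = 0.115). Without E1 or without E2, limma called 0 genes of any list, as it called 0 of all probe sets. The differences themselves moved little for Mt2 (7.75 and 7.96, adjusted p = 0.0618 and 0.0624) and Zbtb16 (3.70 and 3.69, with the same adjusted p). Without M1 or without M2, the number of calls rose in some lists and fell in none, and it also rose over all probe sets.

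**Figure D4:**
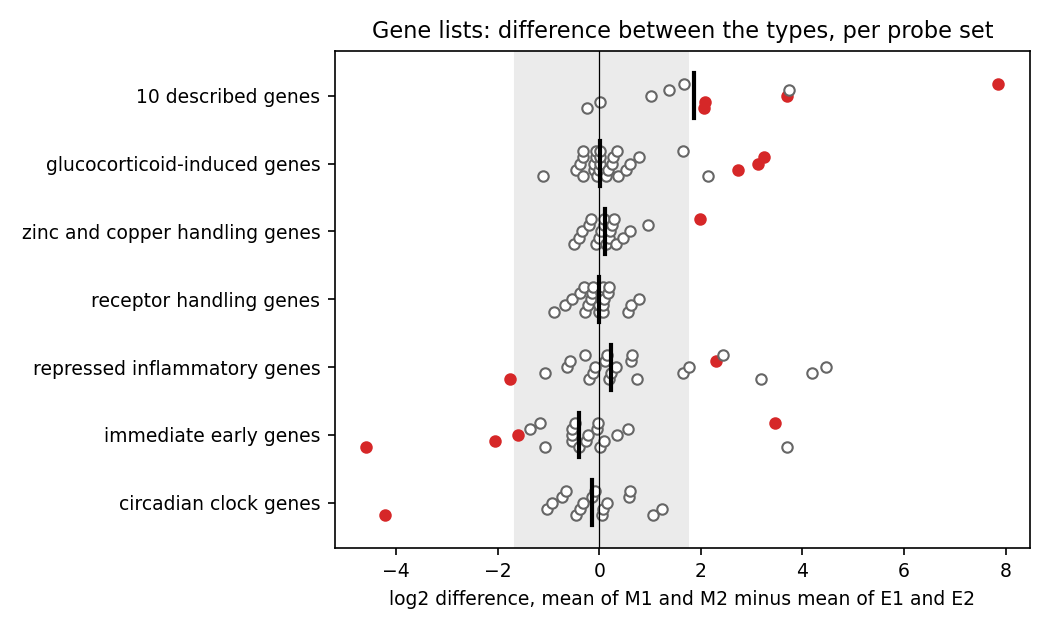
Log2 difference between the types for each probe set of the 10 genes and of 6 related lists; filled red points passed at an adjusted p under 0.05, black bars mark list medians and the gray band holds the central 95% of all probe sets. The median is 1.87 for the 10 genes and between -0.41 and 0.24 for the lists.

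The arrays followed the type labels in part, with 5 of 10 epithelial markers called lower and 4 of 10 mesenchymal markers called higher in M1 and M2 by limma. Cdh1 was at 12.15 and 12.31 in E1 and E2 and at 6.70 and 6.51 in M1 and M2, but the keratins Krt8 and Krt18 were between 13.12 and 13.69 in all 4 lines. Of 14 markers of leukocytes, endothelium and adipocytes, limma called 0, with 2 at an unadjusted p under 0.05, and the leukocyte marker Ptprc was between 5.51 and 5.88. Lyz2, another marker of that list, was at 5.08 (E1), 5.65 (E2), 8.91 (M1) and 6.57 (M2) and did not pass (limma adjusted p = 0.283). The macrophage-associated gene Cd68 was lowest in E2, at 8.77 against 10.66 in E1, and Fabp4 was at 10.77 in M2 and 7.20 in M1. Their part in the values above was not tested.

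Genes with a pattern like that of Mt2 were sought by the root mean square difference of levels centred over the 4 lines. The nearest were the receptor kinase Axl (0.80), the myelin protein gene Pmp22 (0.83) and the guidance factor Sema3a (0.88). All were called higher in the mesenchymal-like lines, which follows largely from how they were picked. For Mt1, with its high level in E1, the nearest were Ust (0.49), Tspan5 (0.49) and Tnfrsf23 (0.55). None of these was called, which likewise follows largely from the search. Ust, a sulfotransferase of dermatan chains, was at 7.56 (E1), 5.52 (E2), 10.15 (M1) and 10.70 (M2).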

How the data were processed

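RNA of E1, E2, M1 and M2 was hybridized by the authors to Affymetrix MoGene 1.0 ST arrays, 1 per line. Per the labels the data were processed with Partek, and background correction and normalization are not given in the sources used here. The deposited values are log2 expression levels, from 2.28 to 14.5, for 35556 probe sets. They were used without further scaling. Platform annotation named 21789 probe sets with 1 gene symbol and 1621 with several. These 23410 were tested, and lists used those with 1 symbol. Genes not matched are not reported here.

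M1 and M2 were compared with E1 and E2 in limma 3.58.1 (R 4.3.3; lmFit and eBayes, 2 residual degrees of freedom), with p-values adjusted by Benjamini and Hochberg over all probe sets. Nothing says that lines were grown more than once, so p-values measure the spread between clones, and the number of arrays limits precision. In fits without a line, the lone line is assumed to vary like the other type. The test was also run on simulated data whose spread came from E1 and E2 alone. M1 and M2 were at least 2-fold apart in more probe sets than E1 and E2, so the simulation was milder than the data.

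Genes, lists and tests were chosen with earlier results of these data known. Genes named are the 10 genes, up to 4 called genes per list with the largest difference (the top 2 where fewer than 2 were called), and the 3 nearest in pattern to Mt2 and Mt1. Other names are marked or are cell type markers. Alternatives were quantile normalization, median centring, a brightness filter, a floor, an intensity trend, all probe sets, another p or fold threshold, a replicate block and leaving out each line.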

Additional observations from a re-analysis of the deposited data

How the results depend on the processing

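For the 10 genes, 75 of 80 results with all 4 lines kept their direction and side of the threshold. Of the 40 results without a line, 2 changed direction. Their side of the threshold is not counted, because limma called nothing over all probe sets without E1 or without E2. Every call was lost there, and no gene could gain one. Among the settings with all 4 lines, the brightness filter, intensity trend, all probe sets, p threshold and replicate block leave each difference as it was. In these only the side of the threshold could change, not the direction. Nr3c1, near 0, changed sign with median centring (-0.021), and when a line was left out it ranged from -0.084 to 0.131. The number of the 10 genes called, 4, was 2 with a floor at the median and between 0 and 5 when a line was left out. Over all probe sets, 874 were called (402 higher and 472 lower in the mesenchymal-like lines), 223 with the floor, 1660 at an adjusted p under 0.1 and between 0 and 1879 when a line was left out (0 without E1 or E2, 1761 without M1, 1879 without M2). With a threshold of 4-fold in place of 2-fold, M1 and M2 differed in 358 probe sets and 0 of the 10 genes (1372 and 1 at 2-fold), and E1 and E2 in 138 and 1 (524 and 2 at 2-fold). The numbers in the line names pair nothing by the labels, and deviations of E1 and M1 from their type means had a correlation of -0.04 across probe sets. With the number as a replicate block, which leaves 1 residual degree of freedom, 319 probe sets were called, and the call of Fkbp5 was lost (adjusted p = 0.0884). The calls of Zbtb16, Mt2 and Tsc22d3 were kept. In the related lists the floor left 0 glucocorticoid-induced (3 without it), 0 zinc and copper (1), 0 inflammatory (2), 1 immediate early (4) and 0 clock (1) calls, and gave 1 receptor handling call (0). The block left 0 zinc and copper, 1 inflammatory and 2 immediate early calls. Inflammatory calls were 4 with quantile normalization or the intensity trend and 5 at an adjusted p under 0.1. The causes were not tested. Levels below the file median, as of Mt2 in E1 and E2, limit how far a fold can be read.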
